A study of Mus musculus with 2 samples.

Results

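Mast cells and basophils of the mouse omentum, the fat fold whose milky spots hold lymphoid clusters, were chosen by 9 genes in single-cell RNA sequencing data. A cell was taken where 2 or more of *Cpa3*, *Mcpt4*, *Cma1*, *Tpsb2*, *Mcpt8*, *Prss34*, *Fcer1a*, *Ms4a2* and *Cd200r3* had at least 1 unique molecular identifier (UMI, the tag that counts captured transcripts) and where *Cd3e*, *Cd79a* and *Elane* had none, which left out cells with a T cell, B cell or granulocyte precursor gene. This found 54 of 14414 cells with 200 to 7500 genes, 40 of 8680 in the wild-type (WT) library and 14 of 5734 in the *Postn*-DTR library. Of the 54 cells, 36 had mast proteases only (*Mcpt4*, *Cma1* or *Tpsb2*), 8 had basophil proteases only (*Mcpt8* or *Prss34*), 10 had both and 0 had neither. Because the 9 genes chose the cells, their levels are given as a description.

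Both groups of mice received diphtheria toxin (DT) and were analysed 5 days later. WT mice carried no toxin receptor, and *Postn*-DTR mice carried a DT receptor inserted into the *Postn* gene, so that the toxin reaches cells which use the *Postn* promoter. Both were on the C57BL/6 background, the receptor sits in the first coding exon of *Postn*, and the sex and age of the mice and any sorting of the cells were not given in the sources used here. The omenta of 3 mice per group were pooled into 1 library, so that no test between groups was possible, and no p-value or standard error is given. None of the 54 cells had a UMI of *Postn*, which was found in 34 WT cells and 8 *Postn*-DTR cells. The libraries held 80175389 and 81027370 UMIs, with medians of 5618 and 8456 per cell. They shared 65 barcode sequences, of which 0 belonged to a mast cell or basophil. Intervals are exact 95% intervals (Clopper-Pearson for shares, Poisson or conditional binomial for UMIs), and they cover counting error only. Where a count was 0, the share it allows is given as 3 counts of the total.

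Mast cells live in connective tissue and along the linings of body cavities, where they store histamine, heparin and proteases in granules, depend on the receptor KIT and release these stores when antigen cross-links IgE on the high-affinity receptor FcεRI. Basophils are short-lived blood granulocytes that bear the same receptor, store other proteases and are a quick source of IL-4. *Cpa3* encodes carboxypeptidase A3, a granule enzyme of both cell types in the mouse. *Fcer1a* and *Ms4a2* encode the α and β chains of FcεRI, and *Cd200r3* encodes an activating receptor of both. *Mcpt4* and *Cma1* encode chymases and *Tpsb2* a tryptase of connective tissue mast cells. *Mcpt8* and *Prss34* encode proteases of mouse basophils.

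The protease genes lie in clusters. On GRCm38 (mm10), GENCODE places *Cma1* at chr14:55941451-55944675, *Mcpt4* at chr14:56059629-56062313 and *Mcpt8* at chr14:56082166-56085273, all on the minus strand. *Prss34* is at chr17:25298394-25300165, close to *Tpsab1* at chr17:25343245-25345562 and *Tpsb2* at chr17:25366305-25369098. *Cpa3* is at chr3:20215620-20242181. The transcription factor GATA2, which both lineages need, binds sequences with a GATA core, and its gene was among those with a high level in these cells. The 250 bases before the RefSeq start of 4 genes (GRCm38.p6) are therefore shown for a mast chymase pair, a basophil protease and the shared carboxypeptidase, with GATAA, or its reverse complement TTATC, in capitals. Each runs 5′ to 3′ on the strand of its gene.
*Cma1*, chr14:55944676-55944925, minus strand: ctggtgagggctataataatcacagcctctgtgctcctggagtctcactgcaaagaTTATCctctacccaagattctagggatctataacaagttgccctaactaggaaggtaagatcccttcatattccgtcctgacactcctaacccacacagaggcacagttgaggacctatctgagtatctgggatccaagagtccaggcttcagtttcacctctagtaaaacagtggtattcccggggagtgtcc
*Mcpt4*, chr14:56062311-56062560, minus strand: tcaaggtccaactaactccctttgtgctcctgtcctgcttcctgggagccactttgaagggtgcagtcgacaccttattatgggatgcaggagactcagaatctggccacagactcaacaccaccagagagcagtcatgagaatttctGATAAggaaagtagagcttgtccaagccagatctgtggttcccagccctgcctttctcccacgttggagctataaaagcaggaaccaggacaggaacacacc
*Prss34*, chr17:25298144-25298393, plus strand: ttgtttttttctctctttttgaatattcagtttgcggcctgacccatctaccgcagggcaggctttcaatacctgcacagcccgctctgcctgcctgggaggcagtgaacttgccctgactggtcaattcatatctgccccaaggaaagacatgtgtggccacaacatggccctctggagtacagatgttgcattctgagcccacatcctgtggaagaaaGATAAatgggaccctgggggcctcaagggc
*Cpa3*, chr3:20242182-20242431, minus strand: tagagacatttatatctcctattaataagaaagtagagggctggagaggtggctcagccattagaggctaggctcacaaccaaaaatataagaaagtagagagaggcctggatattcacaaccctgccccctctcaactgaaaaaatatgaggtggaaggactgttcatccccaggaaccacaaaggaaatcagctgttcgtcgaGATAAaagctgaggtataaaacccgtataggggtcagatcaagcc
Each holds 1 match, which begins 194 bases before the start of *Cma1*, 102 before that of *Mcpt4*, 30 before that of *Prss34* and 45 before that of *Cpa3*. The same letters were found in 22.6% of 32851 promoters of 250 bases, on either strand. *Mcpt8* had 0 matches in its window. A match is a run of letters and not a measured binding site.

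The number of rule genes per cell differed between the libraries. In the *Postn*-DTR library each of the 14 cells had 4 to 7 rule genes, and none had 2 or 3. In the WT library 17 of the 40 cells had exactly 2, a further 2 had 3, and 21 had 4 to 8. The same count in cells that the rule left out gives the background. Among 3328 WT cells with *Cd3e*, a T cell gene, 25 had exactly 2 rule genes (0.751%, 95% interval 0.487 to 1.11), next to 17 of 1860 cells without an excluded gene (0.914%, 0.533 to 1.46). At least 3 rule genes were found in 2 of the WT cells with *Cd3e* (0.0601%, 0.00728 to 0.217) and in 23 of the 1860 (1.24%, 0.785 to 1.85). Among 535 *Postn*-DTR cells with *Cd3e*, 0 had 2 or more, which allows a share of up to 0.561%. Cells with the B cell gene *Cd79a* did show such a background in both libraries. Exactly 2 rule genes were found in 22 of 3645 in WT (0.604%, 0.379 to 0.912) and in 7 of 3269 in *Postn*-DTR (0.214%, 0.0861 to 0.441). The median depths were 4940 UMIs for WT cells with *Cd3e* and 5598 for the 1860.

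**Figure D1:**
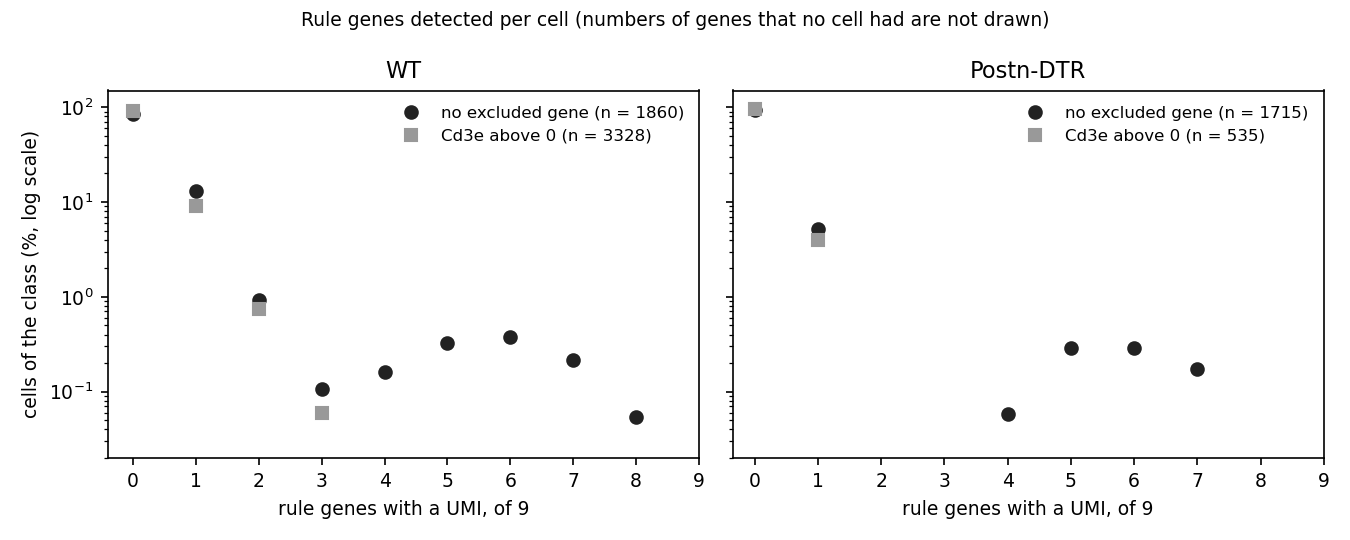
Share of cells (percent, log scale) by the number of the 9 rule genes with a UMI, for cells without *Cd3e*, *Cd79a* and *Elane* (dark circles) and cells with *Cd3e* (grey squares), in each library. In WT the 2 classes lie close together at 2 rule genes (0.914% and 0.751%), and from 4 rule genes on no cell with *Cd3e* is seen; in *Postn*-DTR the members lie at 4 to 7.

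The 17 WT cells with exactly 2 rule genes went against the label. No rule gene exceeded 2 UMIs in any of them, 14 had at most 1 UMI of each, and 12 were taken for 2 mast proteases and nothing else. Only 3 had *Cpa3*, 1 had *Kit*, 1 had *Hdc* (histidine decarboxylase, which makes histamine) and 1 had *Gata2*. All 17 had 2 or more genes of the list of another cell type: 6 of innate lymphoid cells type 2, 5 of NK cells, 5 of dendritic cells, 5 of monocytes and macrophages, 2 of plasma cells, and 1 each of neutrophils, T cells, B cells and stromal cells, with some cells counted under several lists. The same held for 3 of 18 WT and 5 of 11 *Postn*-DTR mast cells and for 4 of 5 WT and 3 of 3 *Postn*-DTR basophils (both described next). Median UMIs were 5014 in the 17 cells, 1136 and 1020 in the mast cells and 7999 and 4837 in the basophils. The mast protease UMIs of the 17 cells were 6 of *Mcpt4*, 15 of *Cma1* and 11 of *Tpsb2*. In 3033 WT T cells (*Cd3e* above 0, *Cd79a* 0; median 4789 UMIs) these genes gave 87, 120 and 77 UMIs, that is 30.6%, 42.3% and 27.1% of the sum (95% intervals 25.3 to 36.4, 36.4 to 48.2 and 22.0 to 32.7). In the WT mast cells described next they gave 30.9%, 45.0% and 24.2%, which lie within the intervals of the T cells. *Postn*-DTR T cells held too few to compare (2, 15 and 4 UMIs). A share of 2.61% of the WT T cells had *Mcpt4*, 3.20% had *Cma1* and 2.44% had *Tpsb2*. The source of these UMIs was not tested, and the 17 cells are counted as members but were left out of the comparisons of mast cells and basophils.

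The remaining members all had 3 or more rule genes, 23 in WT and 14 in *Postn*-DTR. Each was assigned to the kind whose proteases held more UMIs, which gave 29 mast cells (18 WT and 11 *Postn*-DTR) and 8 basophils (5 and 3). This cut and the assignment were set after the counts above had been seen. Mast cells were shallow: the WT cells held from 513 to 18626 UMIs with a median of 1136, and the *Postn*-DTR cells from 557 to 8065 with a median of 1020. In WT 16 of 18, and in *Postn*-DTR 11 of 11, lay below the median of their library. Basophils held from 4830 to 12226 UMIs in WT and from 4504 to 9455 in *Postn*-DTR. Rule genes took a median of 8.73% of the UMIs of a WT mast cell (highest 28.0%) and 12.4% in *Postn*-DTR (highest 24.1%).

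**Figure D2:**
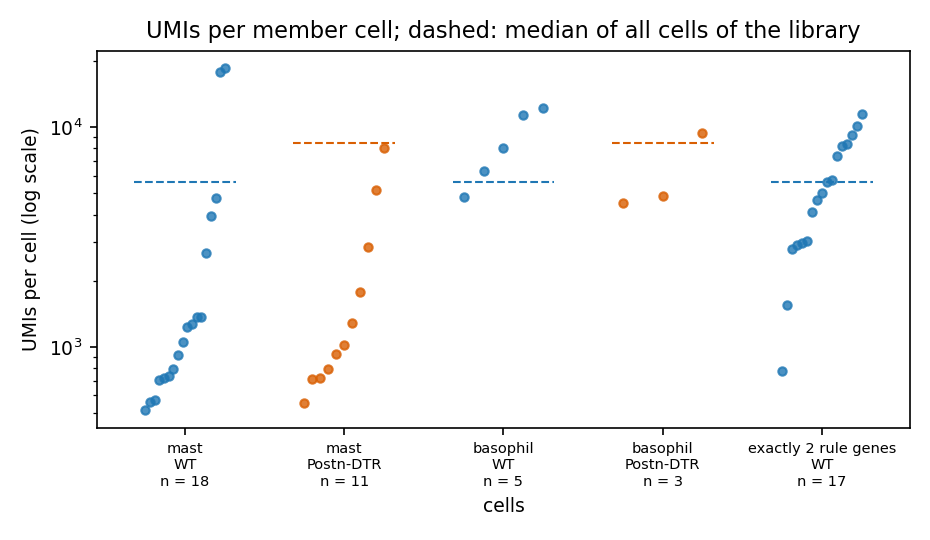
UMIs per cell (log scale) of the mast cells, the basophils and the WT cells with exactly 2 rule genes, one point per cell and sorted within each group; dashed lines are the medians of all cells of each library (5618 and 8456). Most mast cells lie near 1000 UMIs, from 513 in WT and 557 in *Postn*-DTR, and the basophils lie at 4504 or more.

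Chymase *Cma1* was found in each of the 29 mast cells. Its level in the 18 WT cells ran from 0.561 to 1051 UMIs per 10000 of the cell, with a median of 385, and in the 11 *Postn*-DTR cells from 11.6 to 990, with a median of 503. *Mcpt4* was found in 15 of 18 and 10 of 11 cells, with medians of 115 and 113. *Tpsb2* was found in 17 of 18 and 11 of 11, with medians of 179 and 255. The libraries overlapped over nearly the whole range for all 3 genes. *Cpa3* was found in 17 of 18 and 11 of 11 mast cells, with medians of 67.1 and 53.9 UMIs per 10000.

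Of the mast cells, 3 stood apart. A WT cell with 17862 UMIs had 1 UMI each of *Cpa3*, *Cma1* and *Tpsb2* beside 422 UMIs of *S100a8* and 576 of *S100a9*, the calprotectin genes of neutrophils. A *Postn*-DTR cell with 5189 UMIs had 6 UMIs of *Cma1* beside 392 of *S100a8* and 609 of *S100a9*. Both had all 6 genes of the neutrophil list, as did 1 of the 17 sparse WT cells. The deepest WT cell, with 18626 UMIs and 4512 genes, had 139 UMIs of *Cpa3*, 36 of *Kit*, 26 of *Gata2*, 27 of *Cma1* and 21 of *Mcpt8*, with 0 of *Mcpt4*, *Tpsb2*, *Prss34* and *Hdc*. It was the mast cell with the most UMIs of *Mki67* (22) and *Top2a* (10), genes of dividing cells, and it held 399 UMIs of *Gzmb* (granzyme B) and 206 of *Ccl4*. No doublet caller was run, and the part of joined droplets in these cells was not tested. A *Postn*-DTR cell with 2853 UMIs, of which 0.911% came from rule genes, had 4 of the 5 NK cell genes and 2 ILC2 genes, and a WT cell with 1226 UMIs (1.88% from rule genes) had 3 T cell genes. These last cells were kept in all comparisons, also in those without the 3 cells above.

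The 8 basophils had *Mcpt8*, *Prss34*, *Cpa3*, *Ms4a2*, *Cd200r3*, *Hdc* and *Gata2* throughout, and 0 UMIs of the 3 mast proteases. In WT *Prss34* gave 1077, 784, 326, 91 and 2 UMIs and *Mcpt8* gave 193, 151, 39, 41 and 1 in the same cells. In *Postn*-DTR *Prss34* gave 394, 43 and 14 UMIs and *Mcpt8* 72, 9 and 2. The protease counts thus ranged widely within a library. Other genes varied less: *Hdc* gave 18, 31, 41, 11 and 17 UMIs in the WT cells in that order, and 25, 18 and 19 in *Postn*-DTR. *Gata2* gave 26, 18, 24, 10 and 8 UMIs in WT and 24, 17 and 6 in *Postn*-DTR. The WT basophil with 2 UMIs of *Prss34* held 17 of *Hdc*, 71 of *Ccl3* and 222 of *Ccl4*, near the range of the others.

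Besides the deepest cell, 9 mast cells carried basophil protease UMIs. They had 1 to 25 UMIs of *Prss34*, 58 in all, and 8 of the 9 had no *Mcpt8*, which gave 1 UMI in all. In basophils, which were deeper, the same genes gave 2731 and 508 UMIs. Per 10000 UMIs the levels of *Prss34* overlapped. They reached 76.5 in WT and 37.8 in *Postn*-DTR mast cells. In basophils they ran from 4.14 to 980.4 in WT and from 28.9 to 416.8 in *Postn*-DTR. The 9 cells also held 0 UMIs of *Ccl3* and *Ccl4*, which all 8 basophils had. In WT T cells *Prss34* was found in 0.297% of cells and *Mcpt8* in 0, which allows up to 0.0989%, against 6 of 18 WT mast cells with *Prss34*. *Postn*-DTR T cells differed, with *Prss34* in 0, which allows up to 0.626%, and *Mcpt8* in 0.418%. In that library 3 of 11 mast cells had *Prss34* and 0 had *Mcpt8*.

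**Figure D3:**
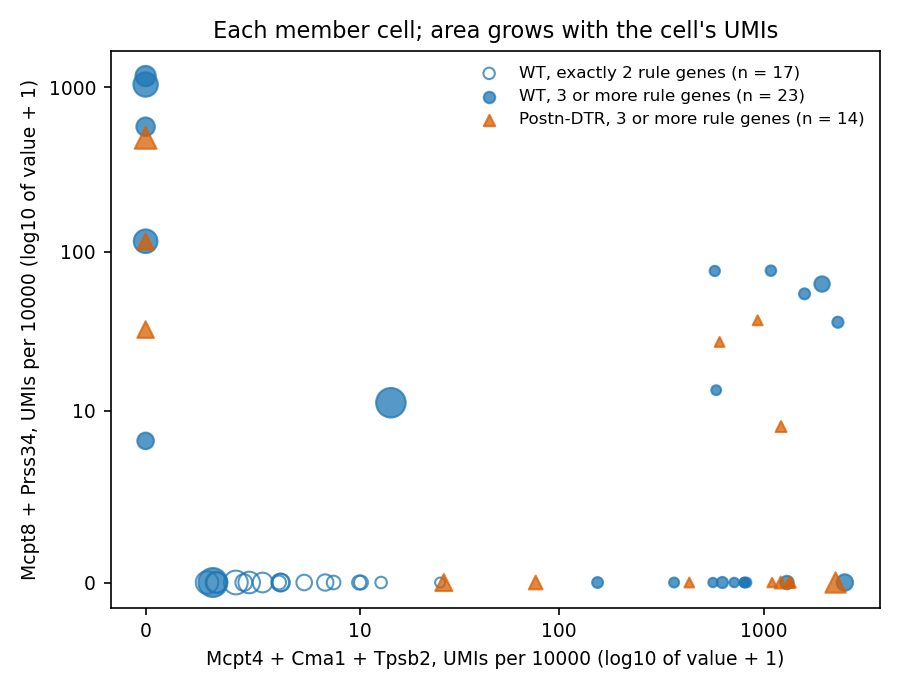
Mast proteases (*Mcpt4*, *Cma1* and *Tpsb2* summed) against basophil proteases (*Mcpt8* and *Prss34* summed) in each of the 54 cells, in UMIs per 10000 on log10 axes after adding 1, with area growing with the UMIs of the cell. Basophils lie on the left edge, most mast cells on the right, 9 mast cells with 1 to 25 UMIs of *Prss34* above them, and the 17 open WT circles with exactly 2 rule genes at the lower left beside the WT mast cell with neutrophil genes; the large circle between is the deepest WT cell.

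Genes outside the rule were then set against all other cells of each library, over all members. Of 2889 genes detected in at least 10% of the members of both libraries, 272 had a level at least 2-fold higher (log2 ratio of 1 or more, with 0.1 added to both means) in both libraries, 9.42% of those compared. As the cells were chosen by their own expression, this is a description. The chemokine gene *Ccl2* stood at 25.5 UMIs per 10000 in WT members and 0.167 in other WT cells (log2 ratio 6.59), and at 41.9 and 0.490 in *Postn*-DTR (6.15). *Tph1*, tryptophan hydroxylase of serotonin synthesis, stood at 7.06 and 33.2 in members of WT and *Postn*-DTR, and at 0.00558 and 0.00506 in other cells. The WT members include the 17 sparse cells, which had 0 UMIs of *Tph1*, and *Postn*-DTR had no such cells. Levels and detection in members are therefore not like for like between the libraries. In mast cells alone the *Tph1* means were 15.7 and 42.2. *Gata2* stood at 5.45 and 9.31 against 0.00789 and 0.00274. *Mrgprb1* and *Mrgprb2*, receptors for basic peptides on mast cells, were found in 10 WT members each, and in 0.0926% and 0.0463% of other WT cells. *Kit* was found in 15 of 40 and 5 of 14 members, with log2 ratios of 4.75 and 4.50. *Il1rl1*, which encodes the IL-33 receptor ST2, was found in 20 and 9 members, with log2 ratios of 4.59 and 5.50.

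The other genes with the highest ratios in both libraries were *Ccl3*, *Ccl4* and *Osm* (secreted factors), *Il4*, *Tpsab1* (a second tryptase gene), *Hdc*, *Cd63* (a granule membrane protein), *Slc6a4* (the serotonin transporter), *Cyp11a1* (the enzyme that starts steroid synthesis), *Egr1* (an early response factor), *Creb3l1*, *Basp1* and *Vwa5a*. The lower of their log2 ratios ran from 3.64 for *Slc6a4* to 6.18 for *Ccl3*. Log2 ratios of 1 or more in both libraries were next counted in the lists chosen for these cells. Among genes detected widely enough, these were 8 of 8 mast genes, 7 of 9 basophil genes and 7 of 8 shared genes. The share over all genes compared was 9.42%. Genes entered through detection in the members, and the lists were chosen with earlier results of these data known. These counts are therefore a description and no support for the label. The signalling list of FcεRI had 4 of 10, with a median of -0.19, near that of all genes compared (-0.21).

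Mast cells and basophils were compared with both libraries pooled, because no library held 10 basophils, the number set for a comparison within a library. Genes needed 20 UMIs in the kind where they were higher, and 679 did. The level was at least 2-fold higher in mast cells for 178 (26.2%) and at least 2-fold higher in basophils for 177 (26.1%). A gene passed through the kind in which it was high, so that these counts are a description. Without the 3 mast cells that stood apart the counts were 82 and 180 of 475 genes, no longer even. The genes named by size had ratios of one sign in both libraries, as the rule for naming them asked. Where 1 kind had 0 UMIs, the fold is a lower bound set against 3 UMIs over the pooled cells of that kind.

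Of both kinds only mast cells had *Ccl2*, with 258 UMIs in 24 of 29 cells and 0 in 8 basophils, at least 63.4-fold higher. *Tph1* gave 105 UMIs in 21 mast cells and 0 in basophils (at least 25.8-fold higher). *Ly6a*, which encodes the surface protein Sca-1, gave 111 UMIs in 18 mast cells (at least 27.3-fold), 82 of them in *Postn*-DTR. The transcription factor gene *Klf2* gave 87 UMIs in 12 mast cells (at least 21.4-fold), *Basp1* gave 53 in 17, *Mrgprb1* gave 53 in 18 and *Tpsab1* gave 52 in 10 (at least 12.8-fold), all with 0 in basophils. *Kit* was found in 18 of 29 mast cells and in 1 of 8 basophils with 1 UMI (log2 ratio 5.68, in WT 5.62 and in *Postn*-DTR 5.94). *S100a8* and *S100a9* also ranked among the highest, but the 814 UMIs of *S100a8* came from the 2 mast cells with neutrophil genes named above, and without these it gave none. Of 10 further mast genes listed, 7 passed the filter and 6 were at least 2-fold higher in mast cells, beside 26.2% of all 679 genes. Their median log2 ratio was 5.90 (3.68 with lower bounds in place of ratios against 0), next to 0.02 over all 679 genes. The exception was *Slc18a2*, the transporter that loads histamine and serotonin into granules, found in 11 of 29 mast cells and 7 of 8 basophils (log2 ratio -0.24, in WT 0.20 and in *Postn*-DTR -3.32). Of 10 further basophil genes listed, 7 passed and 6 were at least 2-fold higher in basophils, beside 26.1% of all 679 genes. Genes passed through the kind in which they were high, so that both counts are a description.

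Basophils had high levels of chemokine and cytokine genes. *Ccl4* gave 1921 UMIs in the 8 basophils, with 352.8 UMIs per 10000 on average, and 206 UMIs in 1 of 29 mast cells, the deepest one (log2 ratio of mast cells over basophils -6.49, in WT -5.68, while *Postn*-DTR mast cells had 0 UMIs). *Ccl3* gave 868 UMIs in basophils and 79 in the same mast cell (-6.59). Over the 5 WT basophils, in the order used above, *Ccl3* gave 223, 128, 166, 30 and 71 UMIs, and in the 3 *Postn*-DTR basophils 95, 26 and 129. *Il6* gave 110 UMIs in 8 basophils and 10 in 1 mast cell (-6.06). *Csf1*, the macrophage growth factor gene, gave 73 UMIs in 8 basophils and 1 in mast cells (-6.75). *Hgf*, the hepatocyte growth factor gene, gave 62 UMIs in 8 basophils and 1 in mast cells (-5.88). Of 20 cytokine and chemokine genes, 15 passed the filter. Of these, 12 were at least 2-fold higher in basophils and 1, *Ccl2*, in mast cells (median -5.24, or -4.08 with lower bounds). Over all 679 genes the share higher in basophils was 26.1%. A gene passed through the kind in which it was high, and *Areg* did so with 26 UMIs in 2 basophils. *Tnf* and *Vegfa* did not pass. They gave 18 and 14 UMIs in 8 mast cells each, and 2 and 1 in 1 basophil each (log2 ratios 2.73 and 3.045). *Il4* was found in 9 of 29 mast cells and 6 of 8 basophils, at 2.91 and 4.02 UMIs per 10000 (log2 ratio -0.45). *Il13* was seen in 1 *Postn*-DTR basophil with 23 UMIs and in no other mast cell or basophil.

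The other genes named by size in basophils were *Nlrp3* (an inflammasome sensor; log2 ratio -6.51), *Cxcr4* (the receptor of CXCL12; -6.24), *Cyp4f18* (-6.18), *Ifitm1* (-6.54), *Marcksl1* (-5.89) and *Gm20400* (48 UMIs in 5 basophils and 0 in mast cells). *Cxcr4* gave 57 UMIs in 7 of 8 basophils and 2 UMIs in 1 of 29 mast cells. It was also found in 44.3% of other WT cells and 48.1% of other *Postn*-DTR cells. *Csf2rb*, the shared β chain of the IL-3, IL-5 and GM-CSF receptors, and the related gene *Csf2rb2* were each found in 8 of 8 basophils. They were found in 2 and 4 mast cells (log2 ratios -4.68 and -3.52). *Csf2rb* was also found in 20.4% of other WT cells and 43.3% of other *Postn*-DTR cells. Of 11 transcription factor genes listed, 4 passed the filter, and all 4 were at least 2-fold higher in basophils, next to 26.1% of all 679 genes. These were *Cebpa* (-4.57), *Cebpb* (-2.34, though -0.75 in *Postn*-DTR alone), *Runx1* (-2.05) and *Gata2* (-1.99). Genes passed through the kind in which they were high, and mast cells were shallow, so that this count is a description. *Cebpa* and *Runx1* passed only through basophils, with 24 and 26 UMIs there and 3 and 12 in mast cells. The other listed factors had too few UMIs to be counted. *Mitf*, a factor of mast cells, had 9 UMIs in 7 mast cells and 0 in basophils, too few to pass. In eicosanoid synthesis *Alox15* gave 19 UMIs in 7 basophils and *Ptgs2* 24 in 3, both with 0 in mast cells, while *Hpgds*, a prostaglandin D2 synthase, gave 11 UMIs in 6 mast cells and 0 in basophils. *Hpgds* and *Alox15* had too few UMIs to pass the filter.

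Granule and receptor genes common to the kinds differed less. *Fcer1g*, the γ chain of FcεRI, was found in every one of the 29 mast cells and 8 basophils, at 46.7 and 27.9 UMIs per 10000 (log2 ratio 0.74). *Srgn*, which encodes the granule proteoglycan core serglycin, had 517 and 578 UMIs in all (-0.40), *Hdc* stood at 20.8 and 33.6 UMIs per 10000 (-0.69) and *Cd63* at 30.01 and 18.1 (0.73). *Srgn* does not mark these cells, being found in 95.1% of WT T cells.

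**Figure D4:**
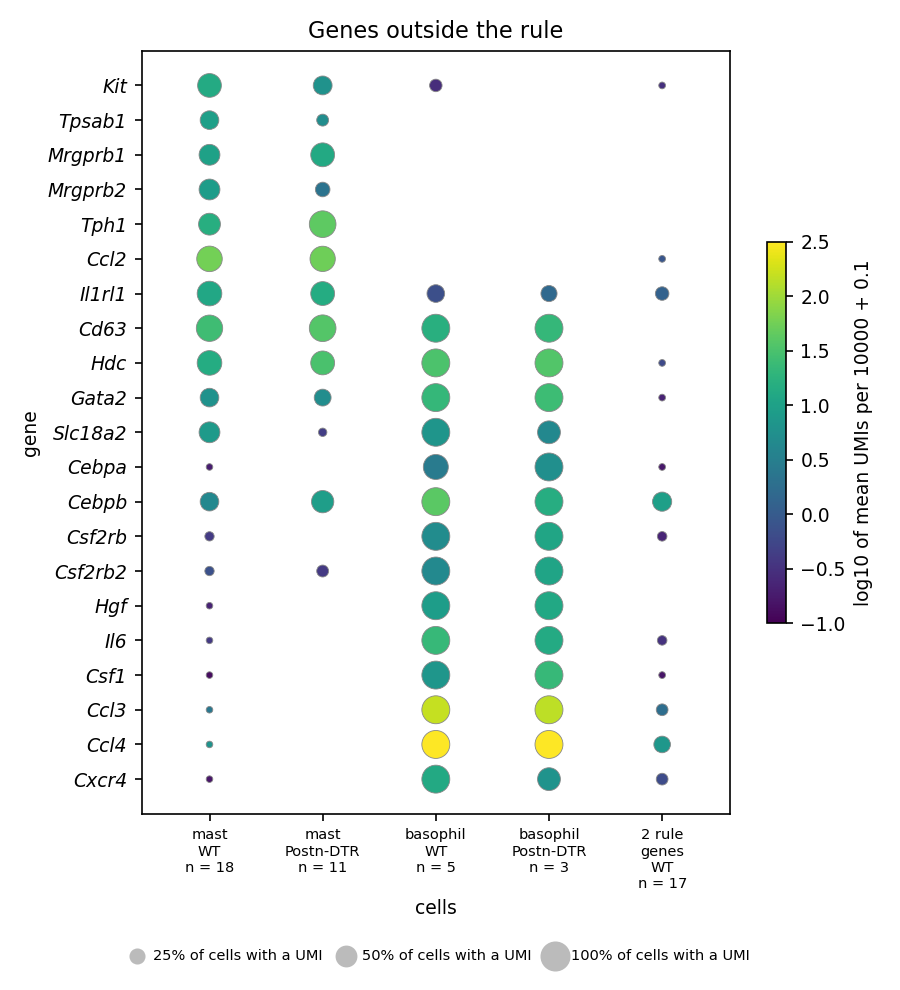
Genes outside the rule in mast cells and basophils of each library and in the 17 WT cells with exactly 2 rule genes; dot area is the share of cells with a UMI and colour the log10 of mean UMIs per 10000 plus 0.1. *Kit*, *Mrgprb1*, *Tph1* and *Ccl2* are higher in mast cells than in basophils of both libraries. For *Csf2rb*, *Hgf*, *Ccl3* and *Ccl4* the reverse holds, and the last column holds mostly small or no dots.

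The comparison of libraries asked whether these cells differed in share or expression 5 days after DT in *Postn*-DTR omenta. By the rule, members were 0.461% of WT cells (40 of 8680, 95% interval 0.329 to 0.627) and 0.244% of *Postn*-DTR cells (14 of 5734, 0.134 to 0.409), a ratio of 0.530 (0.266 to 0.995). With 3 or more rule genes the shares were 0.265% (23 cells, 0.168 to 0.397) and 0.244%, a ratio of 0.921 (0.438 to 1.87). Most of the gap thus lay in the 17 sparse WT cells. Mast cells with 3 or more rule genes were 0.207% and 0.192% of cells (ratio 0.925, 0.395 to 2.07), and basophils were 0.0576% and 0.0523% (ratio 0.908, 0.141 to 4.67). These intervals are wide, so that a difference in share within them could not be detected at these cell numbers.

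Shares also depended on the other cells. Plasma cells, by 3 or more genes of their list, were 706 in WT and 2278 in *Postn*-DTR, and neutrophils, by 4 or more and not being members, were 301 and 901. Members with neutrophil genes therefore stayed in the count. Over the cells outside these gates, members with 3 or more rule genes were 0.2996% of 7677 WT cells and 0.537% of 2609 *Postn*-DTR cells, a ratio of 1.79 (0.852 to 3.63). For mast cells the ratio became 1.80 (0.768 to 4.02) and for basophils 1.77 (0.274 to 9.07). All these intervals include 1.

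Expression in mast cells was compared between 11 *Postn*-DTR and 18 WT cells with 3 or more rule genes, since only 8 cells of the *Postn*-DTR library had mast proteases alone. Of 202 genes with 50 UMIs over both libraries and a UMI in 5 cells of the higher one, 23 (11.4%) were at least 2-fold higher in *Postn*-DTR and 19 (9.41%) at least 2-fold higher in WT, and the median log2 ratio was 0.05. Without the cells that stood apart the counts were 15 and 7 of 107 genes, and with a minimum of 20 UMIs they were 56 and 93 of 460, with more genes higher in WT. With 1 library a group, these are differences between the libraries and their cells.

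The highest ratio was that of *Mt1*, a metallothionein gene that responds to metals and glucocorticoids. It was found in 10 of 11 *Postn*-DTR mast cells with a median of 41.5 and a maximum of 264.6 UMIs per 10000, and in 9 of 18 WT mast cells with a median of 0.269 and a maximum of 29.2. The means were 75.9 and 6.03 (log2 ratio 3.63), and the summed UMIs 123 and 16 (4.26, 95% interval 3.51 to 5.11). *Mt1* was also higher in other cells of the *Postn*-DTR library, at 3.26 against 0.735 (log2 ratio 2.01), and in T cells at 0.747 against 0.168 (1.66). Basophils had 0 UMIs of *Mt1* in *Postn*-DTR and 1 in WT.

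*Ly6a* was found in 11 of 11 *Postn*-DTR mast cells (median 39.2 UMIs per 10000, from 1.93 to 110.6) and in 7 of 18 WT mast cells (median 0, up to 35.7), with a log2 ratio of 2.78. In all other cells its means were 5.28 and 5.19 (log2 ratio 0.03), and in T cells 7.58 and 2.91 (1.35). Most *Postn*-DTR mast cells lay above every WT mast cell, though the ranges overlapped. *Fcer1a*, a gene of the rule, was likewise found in 11 of 11 and 12 of 18 mast cells, with medians of 40.9 and 16.2 and a log2 ratio of 1.80. *Tph1* had means of 42.2 and 15.7 (1.42) and *Hdc* means of 31.4 and 14.3 (1.13), and the summed UMIs gave 1.74 (1.15 to 2.33) and 2.17 (1.64 to 2.70). *Hdc* was also higher in all other *Postn*-DTR cells, at 1.58 against 0.341 (log2 ratio 1.93). The 3 further genes named by size were *Prdx5* (log2 ratio 1.85), *Rpl32* (1.81) and *Ucp2* (1.81).

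Lower in *Postn*-DTR mast cells were *Cmtm7*, found in 3 of 11 cells against 16 of 18 (means 2.11 and 18.0, log2 ratio -3.03), and the nuclear RNA *Malat1*, at 60.1 against 227.4 (-1.92). *Malat1* was found in all 29 cells, with medians of 53.9 in *Postn*-DTR and 90.8 in WT and with maxima of 161.7 and 974.5. In other cells *Cmtm7* and *Malat1* had log2 ratios of -0.32 and -0.11. *Gabarap* had a ratio of -2.01. *Cd74*, of antigen presentation, and *Stmn1*, of dividing cells, had 175 and 64 UMIs in WT mast cells and 1 and 0 in *Postn*-DTR. The WT cell with neutrophil genes held 140 of the 175 *Cd74* UMIs, and the deepest WT cell held 60 of the 64 of *Stmn1*. Without the cells that stood apart the log2 ratios were -4.11 for *Cd74* (means of 1.26 and 23.3) and -4.23 for *Stmn1* (0 and 1.78). Both ratios rest on few cells or UMIs. Most of the remaining *Cd74* lay in WT cells of 793 and 1361 UMIs, which held 20 and 12 UMIs of it. *Stmn1* was found in 5 of 18 WT mast cells, and none but the deepest held more than 1 UMI. *Cd74* was also lower in *Postn*-DTR T cells (-3.28). *Kit* was found in 5 of 11 and 13 of 18 mast cells, with means of 6.05 and 13.5 (-1.14), and *Tmsb10* had means of 17.1 and 56.1 (-1.71), beside -1.75 in all other cells.

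Among list genes with too few UMIs to pass the filter, *Slc18a2* was found in 1 of 11 and 10 of 18 mast cells (3 and 25 UMIs; log2 ratio -4.14, by summed UMIs -1.74, 95% interval -4.11 to -0.03) and *Mrgprb2* in 3 of 11 and 10 of 18 (7 and 20 UMIs; -1.94, by summed UMIs -0.19). Among those that passed, *Cebpb* stood at 8.79 and 4.21 UMIs per 10000 (1.04). Several others differed by less. *Ccl2* stood at 53.3 and 56.0 UMIs per 10000 (log2 ratio -0.07, but 0.82 by summed UMIs), *Fcer1g* at 46.4 and 47.0 (-0.02), *Srgn* at 66.3 and 81.6 (-0.30), *Cd63* at 36.3 and 26.2 (0.47) and *Il1rl1* at 14.0 and 12.0 (0.22). *Cma1* had log2 ratios of 0.11 by the mean over cells and 0.84 by summed UMIs, and *Tpsb2* 0.26 and 1.21. For the other 2 mast proteases the direction depended on the summary: *Mcpt4* had a log2 ratio of -0.38 by the mean over cells and 0.97 by summed UMIs, and *Tpsab1* -0.86 and 1.65, since the deepest *Postn*-DTR mast cell held 693 of 821 and 25 of 29 UMIs. Of 4 mast genes past the filter 1 was at least 2-fold higher (*Tph1*) and 1 at least 2-fold lower (*Kit*). Without the 2 mast cells with neutrophil genes and the deepest WT cell, which left 10 and 16 cells, the log2 ratios were 3.64 for *Mt1*, 2.75 for *Ly6a*, 1.77 for *Fcer1a*, 1.38 for *Tph1*, 1.01 for *Hdc* and -1.06 for *Kit*. *S100a8* then had 0 UMIs in mast cells of both libraries. Of the 5 plasma cell genes, *Sdc1*, *Tnfrsf17* and *Derl3* were at 0 in mast cells of both libraries, and the summed level of the list ran from 0 to 50.4 UMIs per 10000 in *Postn*-DTR (median 3.504) and from 0 to 25.2 in WT (median 0). *Jchain* was found in 7 of 11 and 2 of 18 mast cells (10 and 2 UMIs), beside a log2 ratio of 1.63 in all other cells, and its part in the other differences was not tested.

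**Figure D5:**
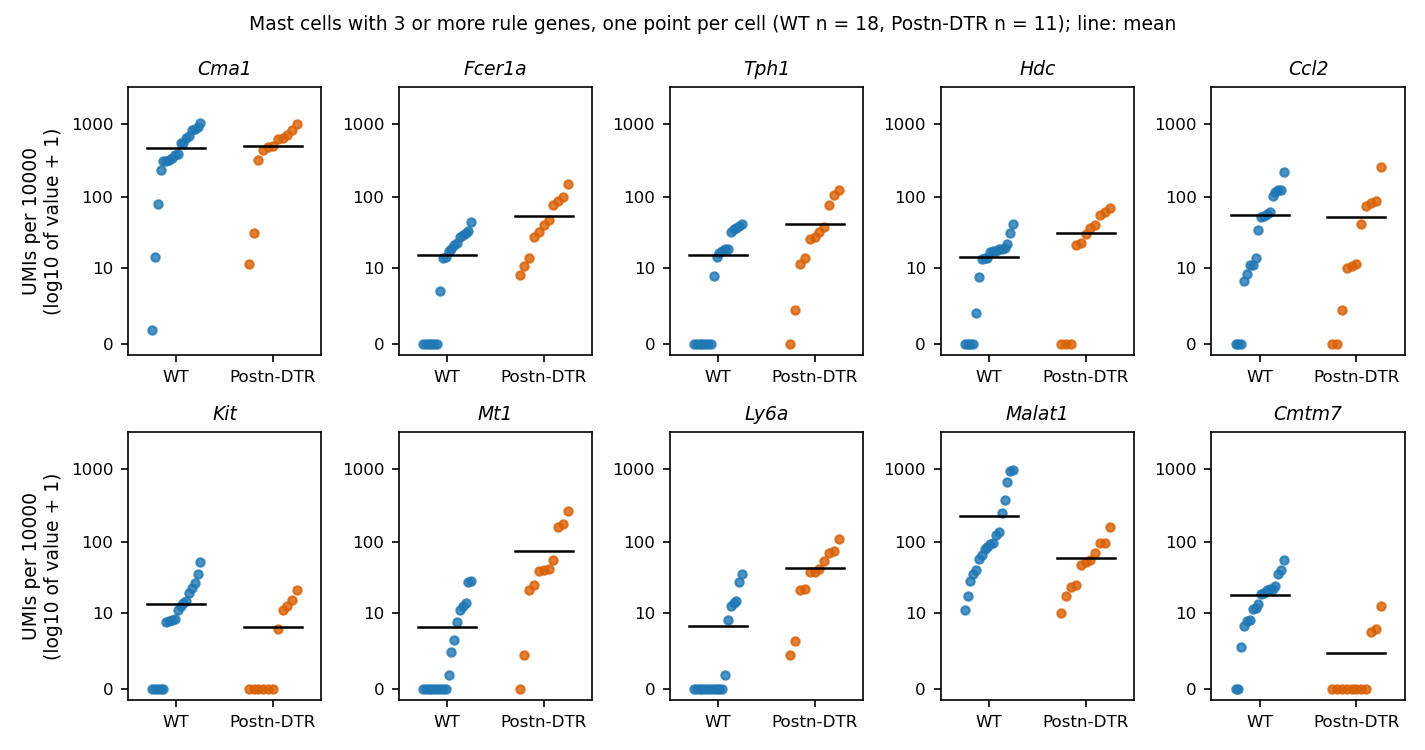
Levels of 10 genes in mast cells with 3 or more rule genes, one point per cell in UMIs per 10000 (log10 axis after adding 1), WT (n = 18, blue) and *Postn*-DTR (n = 11, orange), with lines at the means. *Mt1* (means 6.03 and 75.9) and *Ly6a* (6.31 and 43.9) are higher in *Postn*-DTR, *Cma1* and *Ccl2* overlap over their range, and *Cmtm7* is at 0 in 8 of 11 *Postn*-DTR cells.

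For basophils only 5 and 3 cells were at hand, too few for a comparison across genes. The WT and *Postn*-DTR means, in UMIs per 10000, were 155.6 and 141.7 for *Ccl3*, 320.9 and 406.1 for *Ccl4*, 32.6 and 35.2 for *Hdc* and 21.4 and 25.2 for *Gata2*, with ranges that overlapped for each gene.

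Just outside the rule, 11 WT cells and 1 *Postn*-DTR cell with 3 or more rule genes were left out for an excluded gene. Of these, 3 WT cells and the *Postn*-DTR cell had 6 rule genes with basophil proteases, and 1 to 14 UMIs of *Elane*. The WT cells held 38252, 24406 and 21377 UMIs, with 1102, 843 and 845 of *Prss34* and 65, 172 and 269 of *Mcpt8*, and the *Postn*-DTR cell held 13501 UMIs, with 745 and 122. They also had 328, 195 and 36 UMIs of *Mpo*, the myeloperoxidase of granulocyte precursors, in WT and 12 in *Postn*-DTR. Their UMIs of *Mki67* were 29, 31 and 6 in WT and 10 in *Postn*-DTR. The 8 basophils had 0 UMIs of *Mki67*, and 2 of them had *Mpo* (10 and 2 UMIs). These sets were split by *Elane*, itself a granulocyte precursor gene, and the basophils were shallower, at 4504 to 12226 UMIs. The counts are therefore a description. A pair of WT cells with 325 and 131 UMIs of *Cma1* were left out for 5 and 1 UMIs of the B cell gene *Cd79a*. At the threshold itself, the members with 2 rule genes are the 17 WT cells described above, and 240 WT cells and 88 *Postn*-DTR cells without an excluded gene had 1.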

How the data were processed

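The 2 libraries were made from pooled omenta of 3 mice per group on the Chromium platform. The labels name a 5′ kit, whereas the study's methods name a 3′ kit, and the submitters' processing notes list Cell Ranger 6.0.0 and mm10. The deposited values are natural log values: the authors scaled the UMIs of each cell to 10000, added 1 and took the natural log, with 3 decimals. Values were returned to the linear scale and divided by the smallest step of each cell, which gave UMIs whole within 0.1 for 99.95% (WT) and 99.89% (*Postn*-DTR) of values, and for 100% of those up to 20 UMIs. The scripts were tested on simulated data. Of 19960 identifiers 19932 were found in GENCODE M21, which gave 1078 symbols, and 4 listed genes were not analysed here. Cells with 200 to 7500 genes were kept, 8680 of 8686 and 5734 of 5736. Of these 26 and 7 had over 25% mitochondrial UMIs, and no member did.

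Levels are UMIs per 10000, averaged over the cells of a group. Log2 ratios have 0.1 added to both means, and a ratio of 1 or more in size was counted as a difference. No doublet caller and no clustering was run. Members and gene lists were chosen with earlier results of these data known. Named genes were those of the lists, the 20 genes outside the rule with the highest lower-of-2-libraries ratio of members over other cells, the 10 with the largest smaller-of-2-libraries ratio in each direction between mast cells and basophils, and the 5 highest and 5 lowest between libraries. Immunoglobulin, T cell receptor and globin genes were left out of the last 3. The planned comparisons within each library and between libraries needed 10 cells a group. They were replaced, after the cell numbers were seen, by comparisons of members with 3 or more rule genes and at least 5 cells a group. The analysis used Python 3.11.15, numpy 2.4.6, scipy 1.17.1 and pandas 2.3.3.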

Additional observations from a re-analysis of the deposited data

How the results depend on the processing

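Of the share ratios, those of *Postn*-DTR over WT turned direction under some settings. Over all members the ratio of 0.530 became 1.06 over cells outside the plasma and neutrophil gates. Over cells with mast proteases only it went from 0.432 to 1.10 with 3 or more rule genes, 1.22 with cells thinned to 1000 UMIs and 1.24 when a rule gene needed 2 or more UMIs. The WT members numbered 23 with 3 or more rule genes, 22 with 2 or more UMIs, 15 after thinning and 96 with no lineage excluded, in place of 40. The *Postn*-DTR members numbered 9 after thinning and 23 with no lineage excluded, in place of 14. Cells with mast proteases only numbered 11 in WT with 3 or more rule genes and with 2 or more UMIs, and after thinning 5 and 4 in the libraries. With no lineage excluded they numbered 76 and 16, and WT cells with basophil proteases only numbered 10. Between mast cells and basophils, a minimum of 50 UMIs left 57 and 77 genes in place of 178 and 177. The members as the rule gives them had 324 genes higher in mast cells, and leaving out the cells that stood apart had 82. Between libraries, genes higher in *Postn*-DTR and in WT numbered 56 and 93 with a minimum of 20 UMIs and 15 and 7 without the cells that stood apart, in place of 23 and 19. Summed UMIs gave 14 higher in *Postn*-DTR, and mast cells as the rule gives them 85 higher in WT. *Gabarap* turned from -2.01 to 0.25 with cells thinned to 1000 UMIs. The causes were not tested, apart from the fewer cells or genes that a setting leaves. The settings that take members as the rule gives them, leave out the cells that stood apart or leave the rule genes out of the totals were chosen after seeing the data, and the last moved no result by these measures. *Prdx5* and *Rpl32* fell below a 2-fold difference by summed UMIs (0.50 and 0.56) and after thinning (0.71 and 0.97). No comparison between libraries of basophils was run, and no paired analysis was possible because each group is 1 library.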
